A study of Parasteatoda tepidariorum with 10 samples.

Results

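The comparison described here is that of *Pt-hh* pRNAi embryos with wild-type embryos of the house spider *Parasteatoda tepidariorum* at stage 3, measured by ATAC-seq, in which a transposase cuts open chromatin and clusters of cuts are called as peaks. It comprises 4 of the 10 libraries of the series, 2 from *Pt-hh* pRNAi embryos and 2 from wild-type embryos, chosen by their labels alone. The remaining 6 libraries, from *fuchi* pRNAi embryos at stage 3 and wild-type embryos at stages 2 and 1, were used only as further readouts. Each stage 3 library was made from 40 embryos collected 18 h after egg laying, and the libraries of stages 1 and 2 from 200 embryos each, collected 9 h and 12 h after egg laying. In parental RNAi (pRNAi), double-stranded RNA is injected into adult females and the embryos they lay are examined. For *Pt-hh*, females received 4 injections of about 2 µl at 2 µg/µl, spaced 2 to 3 days apart, and egg sacs laid 13 to 24 days after the first injection were used. The wild-type embryos were untreated, with no control double-stranded RNA named, so the injections and the loss of *Pt-hh* cannot be told apart here. All embryos came from the isolate Osaka, and each of the 2 groups compared held 1 library of line 39 and 1 of line 40. *Pt-hh* pRNAi replicate 1 was of line 40 and replicate 2 of line 39, whereas wild-type replicate 1 was of line 39 and replicate 2 of line 40. The further libraries were not balanced in this way. Both *fuchi* pRNAi libraries were of line 40. Stage 2 replicates 1 and 2 were of lines 39 and 40, and stage 1 replicate 1 was of line 39, with no line given for stage 1 replicate 2. Each label of the 4 libraries compared also carries a letter after the line number that differs between them and whose meaning is not given. Libraries of the same line may therefore still differ in source. A bracketed entry of the labels, with no meaning given, starts with 1 for both *Pt-hh* pRNAi libraries and with 8 and 11 for the wild-type libraries, and cannot be told apart from the treatment. The *fuchi* pRNAi libraries also came from injected females (3 injections, otherwise as for *Pt-hh*), and their bracketed entries start with 1 too. The files hold peaks and no expression values, so the knockdown itself and the identity of the cells were not checked.

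Hedgehog proteins are secreted ligands that bind the receptor Patched. Binding relieves the inhibition of Smoothened by Patched, which in turn alters the activity of transcription factors of the Ci/GLI family, and *patched* is itself a target of the pathway in many animals. In the spider, early *Pt-hh* expression starts from the abembryonic side, the side of the egg opposite the forming germ disc. Later *Pt-hh* is expressed at the rim of the germ disc, and it takes part in anterior patterning of the embryo. Open chromatin marks promoters and other regulatory DNA, and in a whole-embryo library a peak that weakens in all cells and a peak lost with a smaller group of cells cannot be told apart.

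The *Pt-hh* pRNAi lists held 23045 and 19732 peaks, against 19812 and 12494 peaks in the wild-type lists. The means were 21389 ± 2343 and 16153 ± 5175 peaks (SD, n = 2 each) and the difference did not pass an exact two-sided permutation test (p = 0.667), whose smallest possible p with 2 libraries a group is 0.333. Each list was cut to its 12494 strongest peaks, the length of the shortest, by the caller's peak signal (the summed significance under the peak). Strength is given below as a percentile within the cut list, where 100 is the strongest peak. Wild-type replicate 2 stood apart from the other libraries. Its median signal per base was 0.909 in regions shared by all 4 lists, against 1.38 and 1.25 in *Pt-hh* pRNAi replicates 1 and 2 and 1.24 in wild-type replicate 1. Its median peak in those regions spanned 521 bp, against 585 and 592 bp in the *Pt-hh* pRNAi libraries and 592 bp in wild-type replicate 1. No read counts were used, so sequencing depth is unknown and no counting error can be given.

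Most strong peaks were common to *Pt-hh* pRNAi and wild-type embryos. Merging overlapping peaks of the 4 lists gave 20388 regions on 926 scaffolds, of which 6443 (31.6%) had a peak in all 4 lists and 7434 (36.5%) in 1 list only. A peak in both *Pt-hh* pRNAi lists and in neither wild-type list was found in 713 regions, 3.50% of all regions and 7.79% of the 9158 regions held by both *Pt-hh* pRNAi lists. The opposite pattern, a peak in both wild-type lists and in neither *Pt-hh* pRNAi list, was found in 450 regions, 2.21% of all and 5.66% of the 7952 regions held by both wild-type lists. These shares require absence from 2 lists. With 1 library set against 1, the share of regions with no peak in the other library was about the same across groups as between replicates. Of the regions of a *Pt-hh* pRNAi library, 26.0% in line 39 and 34.2% in line 40 had no peak in the wild-type library of that line, and the shares of the wild-type regions with no *Pt-hh* pRNAi peak were 25.8% and 33.1%. Of the regions of *Pt-hh* pRNAi replicates 1 and 2, 26.0% in each case had no peak in the other replicate, and the shares were 35.7% and 34.7% for wild-type replicates 1 and 2. Cutting the libraries by line instead of by treatment gave counts of the same order, with 821 regions in both line 39 lists alone and 541 in both line 40 lists alone. With 2 libraries a group these counts carry no test. Each count requires all 4 libraries. Leaving out any of them raised both, and the group left with 1 library gained the larger count by construction, so the order of the groups cannot be read from these values. The *Pt-hh* pRNAi-only and wild-type-only regions numbered 1377 and 2182 without wild-type replicate 2 and 2058 and 3105 without wild-type replicate 1. Without *Pt-hh* pRNAi replicate 1 the counts were 2156 and 962, and without replicate 2 they were 2367 and 1012.

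**Figure D1:**
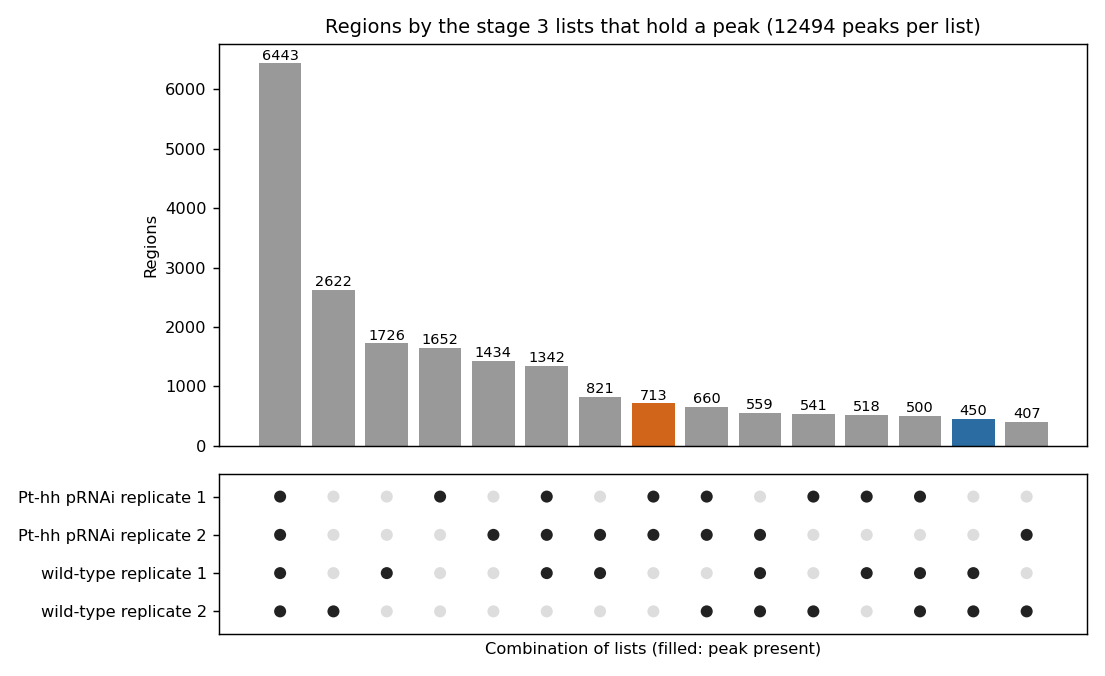
Number of regions (bars) for each combination of the 4 stage 3 lists that holds a peak, with filled dots marking the lists. The 713 regions of both *Pt-hh* pRNAi lists alone (orange) and the 450 of both wild-type lists alone (blue) are fewer than the 2622, 1726, 1652 and 1434 regions found in a single list, and the 821 regions shared by the line 39 libraries alone exceed both.

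The share of peaks held in common was as large across groups as within them. On average 69.5% ± 6.45 of peaks were shared between replicates (SD, 2 pairs) and 69.4% ± 3.99 between a *Pt-hh* pRNAi and a wild-type library (SD, 4 pairs). The pair of *Pt-hh* pRNAi libraries shared 74.0% of peaks. *Pt-hh* pRNAi replicate 2 and wild-type replicate 1, which are both of line 39, shared 74.1%. The wild-type replicates shared 64.9%, the lowest value of the 6 pairs. The 3 pairs that involved wild-type replicate 2 lay between 64.9% and 66.6%, and the 3 pairs without it between 71.3% and 74.1%.

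The regions found only in *Pt-hh* pRNAi embryos were mostly weak. Their median percentile, averaged over both libraries, was 27.9 (quartiles 17.2 and 39.7), and 96 of the 713 (13.5%) reached the 50th percentile. The full, uncut wild-type lists held a peak in 440 of the 713 regions, in every case in wild-type replicate 1, whose list was longer than the cut. The remaining 273 regions (38.3%) had no peak in either full wild-type list, and the 10 strongest of them are described next.

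The strongest lay on scaffold NW_018373110.1 at 764606 to 766127 (Ptep_2.0), with percentiles of 83.4 and 89.5 in *Pt-hh* pRNAi replicates 1 and 2. Another region on this scaffold, 532643 to 533614, stood at 78.8 and 49.7. The second strongest, on NW_018380277.1 at 300596 to 302062, stood at 85.1 and 81.9, and all 6 libraries of *fuchi* pRNAi and earlier stages also had a peak there, at percentiles 87.2 and 94.3 of the full *fuchi* pRNAi lists. Among the 10 libraries, the wild-type stage 3 libraries alone lacked a peak at this site. The third, on NW_018376414.1 at 6374736 to 6375429, stood at 77.5 and 83.8. It lay within 10 kb of or inside LOC107440398, annotated as runt-related transcription factor 3-like, a gene of the Runt family of DNA-binding proteins, and neither *fuchi* pRNAi library had a peak there.

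The other 6 strong *Pt-hh* pRNAi regions varied in how many further libraries held them. On NW_018376834.1, 6413491 to 6414622 stood at 73.2 and 85.7 in *Pt-hh* pRNAi replicates 1 and 2. On NW_018381138.1, 78414 to 79519 stood at 78.0 and 79.1, and was also present in both *fuchi* pRNAi libraries at 70.8 and 98.1 of their full lists. On NW_018374540.1, 2464983 to 2465985 stood at 71.9 and 84.1. These sites were also held by at least 1 wild-type stage 2 library. On NW_018372925.1, 6685344 to 6686312 stood at 73.8 and 75.8. On NW_018372892.1, 3805444 to 3806493 stood at 72.3 and 62.3, with peaks in both *fuchi* pRNAi libraries. The site on NW_018376796.1 at 5565094 to 5565883, at 58.8 and 79.9, was the only 1 of these 10 with no peak in any of the other 8 libraries. All 10 were broader than the median of their class, with peaks of 575 to 1522 bp. The signal they were chosen by is summed over the peak, so this choice favours broad peaks. Ranked instead by the p-value at the summit, 5 of the 10 had mean percentiles between 12.4 and 22.8 and the other 5 between 43.6 and 72.6.

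The regions found only in wild-type embryos were also weak on the whole but broader. Their median percentile was 30.6 (quartiles 19.7 and 42.4), and 61 of the 450 (13.6%) reached the 50th percentile. The full *Pt-hh* pRNAi lists held a peak of both libraries in 175 of the 450 regions and of 1 library in 179, leaving 96 (21.3%) with none. The strongest of these 96 was a broad region on NW_018378148.1 at 878644 to 881203, absent from the *Pt-hh* pRNAi libraries, which stood at percentiles 91.0 and 94.9 in wild-type replicates 1 and 2, with peaks of 2560 and 2018 bp. It had no peak in the *fuchi* pRNAi libraries either. The next, on NW_018373115.1 at 1423268 to 1425374, stood at 75.5 and 91.5 in the wild-type replicates, and both *fuchi* pRNAi libraries held it. A site on NW_018383953.1 at 38573 to 39798 stood at 82.3 and 70.0 in the wild-type replicates and was held elsewhere only by a stage 1 library.

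Of the other 7 strong wild-type regions, 5 differed by under 25 points between the wild-type replicates. Of these, 4 lay on NW_018369794.1 at 4210080 to 4211143 (59.8 and 83.1), on NW_018376213.1 at 355858 to 357655 (69.9 and 68.0), on NW_018378875.1 at 3195955 to 3197132 (52.7 and 75.1) and on NW_018383145.1 at 2346729 to 2348577 (61.5 and 65.7). The fifth, on NW_018379163.1 at 6603405 to 6604194, stood at 68.0 and 57.0 in wild-type replicates 1 and 2. The remaining sites were carried by wild-type replicate 2. They were NW_018380553.1 at 45322 to 47183, with 30.7 and 94.3, and NW_018371833.1 at 2226290 to 2228633, with 35.7 and 87.0. The gap between the wild-type replicates at these last sites was larger than 50 points, more than the percentile of wild-type replicate 1 itself. Ranked instead by the p-value at the summit, the 10 strong wild-type regions had mean percentiles between 2.35 and 55.5. The strongest, on NW_018378148.1, stood at a mean of 38.15 by this ranking, against 93.0 by signal.

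Peaks of the wild-type-only regions were broader than those of the *Pt-hh* pRNAi-only regions, whose widths were close to those of weak regions held by all 4 lists. The median mean width was 461 bp in *Pt-hh* pRNAi-only regions and 622 bp in wild-type-only regions, with a median signal per base of 0.976 and 0.586. Signal per base is not scaled between libraries and was low throughout wild-type replicate 2, so it is also set against each list's own median below. Peaks over 1 kb made up 4.07% of the *Pt-hh* pRNAi-only regions (29 of 713) and 16.0% of the wild-type-only regions (72 of 450). In the 1716 regions held by all 4 lists with a mean percentile under 50, the median width was 453 bp. Their median signal per base was 0.998, and 3.32% of them exceeded 1 kb. The contrast in width was seen in each library. The *Pt-hh* pRNAi-only regions had median widths of 461 and 458 bp, below the medians of 552 and 529 bp of all peaks in those 2 lists. Their median signal per base was 1.042 and 0.916 in *Pt-hh* pRNAi replicates 1 and 2, against list medians of 1.155 and 1.065. The wild-type-only regions had median widths of 665 and 530 bp, above the list medians of 544 and 516 bp. Their median signal per base was 0.643 and 0.546 in wild-type replicates 1 and 2, against list medians of 1.04 and 0.721. The same breadth appeared in a set that crosses the treatment. Regions held only by the line 40 libraries, which are *Pt-hh* pRNAi replicate 1 and wild-type replicate 2, had a median width of 604 bp and 18.3% of them exceeded 1 kb, while those held only by the line 39 libraries had a median of 458 bp and 2.92%. The part of line in the breadth of the wild-type-only regions was not tested.

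**Figure D2:**
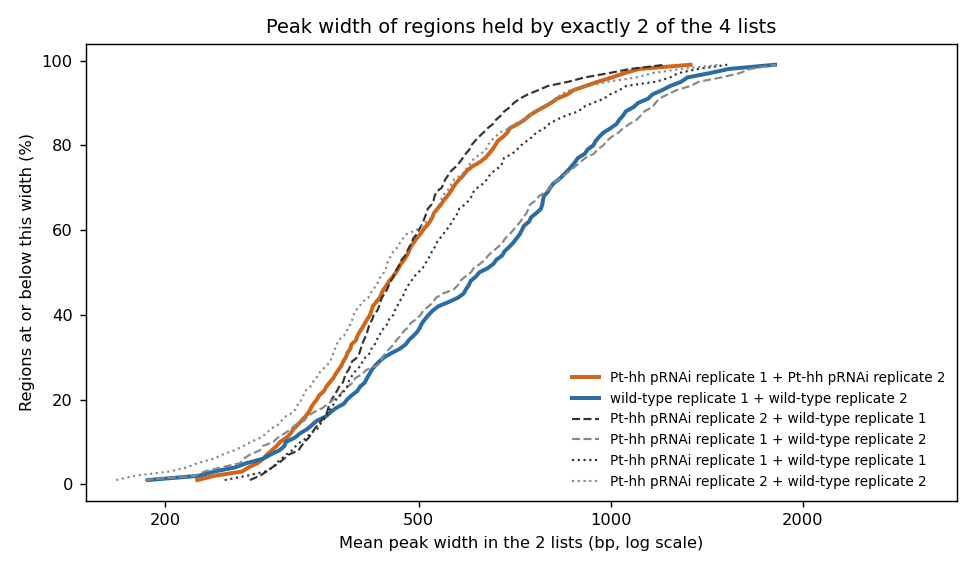
Cumulative share of regions (%) by mean peak width (bp, log scale) for the 6 sets of regions held by exactly 2 of the 4 lists. Regions of both *Pt-hh* pRNAi lists alone (orange, median 461 bp) run with the narrow sets, and regions of both wild-type lists alone (blue, median 622 bp) run beside those of the line 40 libraries alone (grey dashed, median 604 bp).

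Neither class gathered on a few scaffolds. The 713 *Pt-hh* pRNAi-only regions were spread over 307 scaffolds and the 450 wild-type-only regions over 201. Among the 133 scaffolds with at least 50 regions, *Pt-hh* pRNAi-only regions made up between 0 and 13.7% of the regions of a scaffold (median 3.26%), and wild-type-only regions between 0 and 9.86% (median 2.27%). *Pt-hh* pRNAi-only regions were the more numerous on 74 of these scaffolds and wild-type-only regions on 44. Single scaffolds leaned either way, as these examples chosen after their values were seen show. NW_018377111.1 held 14 *Pt-hh* pRNAi-only and 2 wild-type-only regions among 185, and NW_018382251.1 held 12 and 0 among 158. NW_018370256.1 held 2 *Pt-hh* pRNAi-only and 10 wild-type-only regions among 147. A further region of the same class lay within 50 kb for 12.3% of the *Pt-hh* pRNAi-only regions (88) and 18.2% of the wild-type-only regions (82), although the second class is the smaller. A region held by all 4 lists lay within 5 kb of 11.4% of the *Pt-hh* pRNAi-only regions and 16.7% of the wild-type-only regions, against 19.7% of the regions held by all 4 lists themselves.

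Libraries that had no part in defining the classes also held many of these regions. Among those libraries, the *fuchi* pRNAi libraries share the injections and the start of the bracketed entry with the *Pt-hh* pRNAi libraries. The part of these in the shares was not tested. Both *fuchi* pRNAi libraries had a peak in 24.1% of the *Pt-hh* pRNAi-only regions (172 of 713) and in 17.8% of the wild-type-only regions (80 of 450). For the regions with no peak in the full lists of the opposite group the shares were 20.5% (56 of 273) and 5.21% (5 of 96). These subsets passed unlike filters, since the full lists differ in length and that of wild-type replicate 2 has no peak beyond the cut. The part of this in the shares was not tested. By replicate, *fuchi* pRNAi replicate 1 held 34.2% of all *Pt-hh* pRNAi-only and 27.1% of all wild-type-only regions, while replicate 2 held 49.2% and 49.8%. Over the whole classes the *fuchi* pRNAi libraries thus differed more from each other than the classes did. In the subsets with no peak in the opposite full lists, replicate 1 held 29.7% and 11.5% and replicate 2 held 44.7% and 30.2%. The earlier stages leaned the other way. Both wild-type stage 2 libraries held 16.0% of the *Pt-hh* pRNAi-only regions (114) and 26.9% of the wild-type-only regions (121), and both stage 1 libraries held 14.2% (101) and 22.2% (100). All 4 early-stage libraries held a larger share of the wild-type-only than of the *Pt-hh* pRNAi-only regions. Among the regions with no peak in the opposite full lists the shares in both stage 2 libraries were 15.4% (42 of 273) and 14.6% (14 of 96), so the difference at stage 2 was not seen there. Weak regions held by all 4 stage 3 lists, those with a mean percentile under 50, were held by both *fuchi* pRNAi libraries in 53.7% of 1716 cases and by both stage 2 libraries in 36.0%. Width and signal per base differ between the classes as given above, and their part in these shares was not tested.

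**Figure D3:**
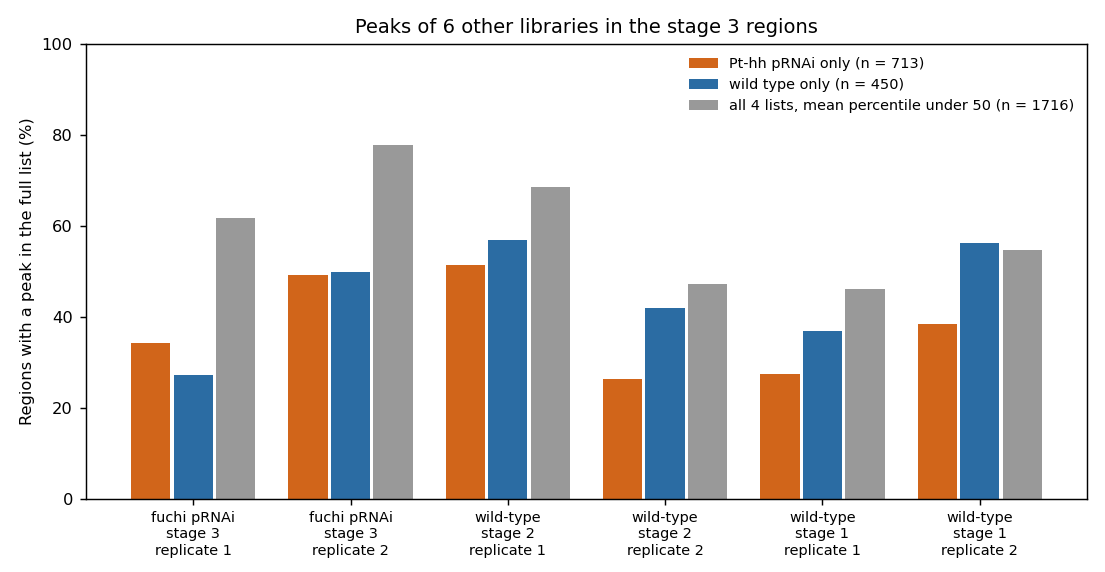
Share of regions (%) with a peak in the full list of each of 6 other libraries, for the *Pt-hh* pRNAi-only regions (orange), the wild-type-only regions (blue) and the weaker regions held by all 4 lists (grey). In the 4 libraries of stages 2 and 1 the blue bar is higher than the orange bar, and in *fuchi* pRNAi replicate 1 it is lower (27.1% against 34.2%).

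In the 6443 regions held by all 4 lists, no region was called as different in rank for *Pt-hh* pRNAi against the wild type. The 5 strongest by mean percentile lay between percentiles 99.95 and 100 in all 4 lists, which a mean so close to the top of the scale requires, with peak widths between 2494 and 3557 bp. The 6 further libraries, which had no part in choosing these sites, held all 5 at percentiles of 99.95 or more of their full lists. Percentiles were compared with limma, a linear model that shares the estimate of variance among regions, with Benjamini-Hochberg adjustment. The test called 0 of 6443 regions at an adjusted p under 0.05 in either direction (0% called), and the smallest adjusted p was 0.964. At an unadjusted p under 0.05 there were 217 regions (3.37%), 133 higher and 84 lower in *Pt-hh* pRNAi. The median difference was 0.97 percentile points, the median absolute difference 7.72 and the median standard error 14.3, so the typical difference was smaller than its standard error.

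Differences between groups were about as wide as those between replicates. In single-library differences, the standard deviation over regions was 20.2 points within line 39 and 23.0 within line 40 for *Pt-hh* pRNAi minus wild type, against 20.0 for the *Pt-hh* pRNAi replicates and 24.6 for the wild-type replicates. Both *Pt-hh* pRNAi libraries ranked above both wild-type libraries in 1268 regions (19.7%) and below both in 802 (12.4%). These are descriptions of all regions and carry no test. Against wild-type replicate 1 alone the shares were 37.1% above and 31.6% below, and against wild-type replicate 2 alone 41.8% and 31.3%.

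**Figure D4:**
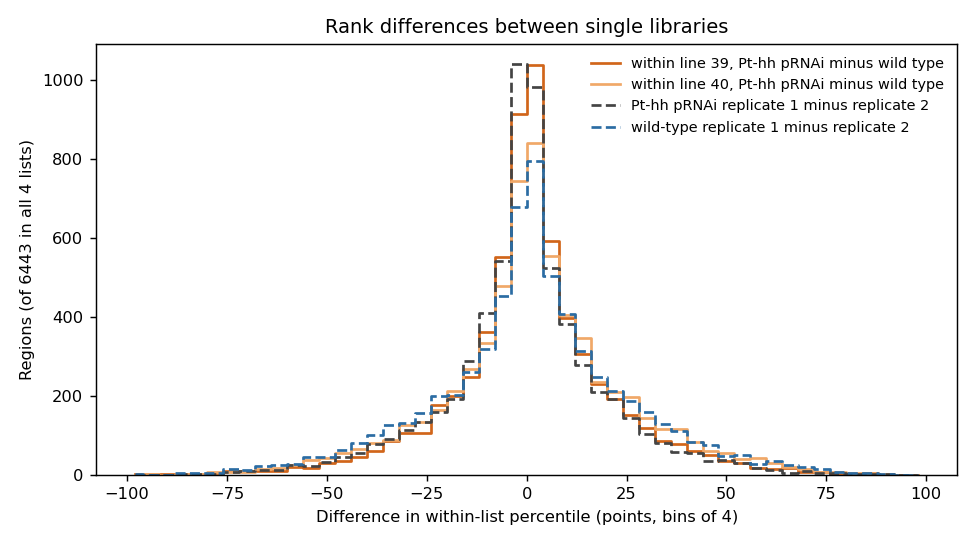
Histogram of the difference in within-list percentile (points, bins of 4) over the 6443 regions held by all 4 lists, for the 2 comparisons of *Pt-hh* pRNAi with wild type within a line (solid) and the 2 pairs of replicates (dashed). The 4 curves overlap closely, with standard deviations of 20.2, 23.0, 20.0 and 24.6 points.

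The sites with the smallest p in the rank comparison are given as values, since none passed the adjusted threshold (limma, adjusted p = 0.964 for each). Among those higher in *Pt-hh* pRNAi, NW_018377636.1 at 523209 to 524220, at the uncharacterised gene LOC107437060, stood at percentiles 83.7 and 85.4 in *Pt-hh* pRNAi replicates 1 and 2 and at 17.0 and 25.2 in wild-type replicates 1 and 2. The difference was 63.5 ± 14.2 points (SE). A site on NW_018379904.1 at 19724021 to 19725656 stood at 85.6 and 77.4 in *Pt-hh* pRNAi and at 10.1 and 25.7 in the wild type. Both sites were wider in *Pt-hh* pRNAi, at 1012 and 532 bp against 520 and 421 bp for the first and 1636 and 999 bp against 516 and 428 bp for the second. The ranked signal is summed over the peak, so width is a part of it and not a separate measure. The other 3 were strong in every library, with differences between 10.1 and 13.0 points. On NW_018369190.1, 2830865 to 2832080 stood at 97.9 and 96.7 in *Pt-hh* pRNAi and 86.0 and 88.3 in the wild type. Its peak was 1216 and 1215 bp wide in the *Pt-hh* pRNAi libraries, against 564 and 496 bp in the wild-type libraries.

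Among the sites lower in *Pt-hh* pRNAi, NW_018376620.1 at 54896 to 57168 stood at 0.23 and 17.1 in *Pt-hh* pRNAi replicates 1 and 2, against 85.4 and 92.7 in wild-type replicates 1 and 2. The difference was −80.4 ± 15.0 points (SE). At NW_018376796.1, 7685880 to 7688256, the percentiles were 4.89 and 16.2 in *Pt-hh* pRNAi and 81.5 and 85.4 in the wild type. At both sites the *Pt-hh* pRNAi peaks were the narrower, at 1074 and 1396 bp against 1886 and 2163 bp and at 735 and 825 bp against 1563 and 1455 bp. At the second site wild-type replicate 2 had 2 peaks in the region, of which the stronger is given. Here too width is a part of the ranked signal. *fuchi* pRNAi replicate 2 held both sites, at percentiles 43.6 and 41.5 of its full list, and *fuchi* pRNAi replicate 1 held neither. The other 3, on NW_018376178.1 at 3500527 to 3503376, NW_018374540.1 at 75547 to 76736 and NW_018382618.1 at 2276108 to 2276910, stood at percentiles of 79.3 or more in every list, with differences of −14.6, −7.56 and −5.73 points.

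Peak width gave a similar picture. No region was called (0 of 6443, limma, smallest adjusted p = 0.300), while 378 had an unadjusted p under 0.05, 296 of them wider and 82 narrower in *Pt-hh* pRNAi. The median log2 difference was 0.060 with a median standard error of 0.15. Both *Pt-hh* pRNAi libraries had wider peaks than both wild-type libraries in 1683 regions (26.1%) and narrower peaks in 570 (8.85%). This lean went with wild-type replicate 2. Against wild-type replicate 1 alone both *Pt-hh* pRNAi libraries were wider in 36.9% of regions and narrower in 33.0%, whereas against wild-type replicate 2 alone the shares were 58.4% and 17.8%.

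The sites with the smallest p for width included 3 wider in *Pt-hh* pRNAi. They were NW_018382571.1 at 1199229 to 1199780 (546 and 551 bp in *Pt-hh* pRNAi against 229 and 240 bp in the wild type), NW_018376414.1 at 4077487 to 4077794 (305 and 304 bp against 205 and 199 bp) and NW_018375723.1 at 622856 to 623382 (515 and 527 bp against 215 and 191 bp). At the first site wild-type replicate 2 had 2 peaks in the region, of which the stronger is given. The 3 narrower in *Pt-hh* pRNAi were NW_018368451.1 at 86925 to 87135 (157 and 149 bp against 206 and 210 bp), NW_018369794.1 at 3873412 to 3874974 (494 and 554 bp against 1563 and 1361 bp) and NW_018370170.1 at 3666772 to 3668662 (873 and 871 bp against 1891 and 1792 bp). At the last of these *Pt-hh* pRNAi replicate 1 had 2 peaks in the region, of which the stronger is given. All 6 had an adjusted p of 0.300 (limma). The second of the narrower sites lies at LOC107437002, annotated as adhesion G protein-coupled receptor L1-like, a membrane receptor of the latrophilin family.

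Summit position was the only measure with called regions. The base of strongest signal differed at an adjusted p under 0.05 in 26 of the 6443 regions (0.404%, limma), 12 with the summit further along the scaffold in *Pt-hh* pRNAi (0.186%) and 14 with it nearer the start (0.217%). The shifts lay between 210 and 2752 bp in size, with a median of 449 bp, and replicate summits of these regions lay within 61 bp of each other. The test picks regions whose shift is large beside the spread of the replicates, so these values partly follow from the choice. In 23 of the 26 every list had a single peak. Examples, chosen after their values were seen, were as follows. On NW_018378792.1 at 20566 to 21967 the summit lay 1099 bp from the region's start in both *Pt-hh* pRNAi libraries and 192 and 190 bp from it in the wild-type libraries (908 ± 9.5 bp, SE, adjusted p = 0.0136, limma). On NW_018380695.1 at 2583966 to 2586366 it lay at 142 bp in both *Pt-hh* pRNAi libraries and at 713 bp in both wild-type libraries (−571 ± 6.9 bp, SE, adjusted p = 0.0136, limma). This region is not among the 23 with a single peak in every list, and each summit given is that of the list's strongest peak. On NW_018378875.1 at 3207637 to 3208520 the offsets were 97 and 97 bp against 492 and 491 bp. At these sites the groups did not overlap, which the call itself favours. The summits lay at separate places inside a common region.

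The number of summit calls changed with the fit. No region was called with the replicate block or with the line as a block, and leaving out *Pt-hh* pRNAi replicate 1, *Pt-hh* pRNAi replicate 2 or wild-type replicate 2 also gave 0 calls, whereas leaving out wild-type replicate 1 gave 221. A block leaves the shifts themselves as they are. Blocks and left-out libraries alike leave fewer residual degrees of freedom, and the part of this in the counts was not tested. Windows of 200 bp around the summits, which no longer join distant summits into 1 region, gave 0.

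Gene positions for the build of the files were at hand for 162 genes, taken from annotation tables of the study that list genes near its *fuchi* pRNAi comparison, which shares the wild-type libraries. Membership in that list is therefore not independent of the wild-type values. Of the Hedgehog pathway it placed *Pt-hh* and a *patched*-like gene, and of the patterning genes *Pt-GATA5*, a *Wnt-16*-like gene, an *ush*-like gene and *g20850*. Of all regions, 746 (3.66%) lay inside or within 10 kb of 1 of the 162 genes, among them 17 of the 713 *Pt-hh* pRNAi-only regions (2.38%), 22 of the 450 wild-type-only regions (4.89%) and 306 of the 6443 regions held by all 4 lists (4.75%).

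At *Pt-hh* itself (LOC107451809), the targeted gene, most regions were held by both groups. Of 10 regions on NW_018380730.1 inside or within 10 kb of the gene, 7 were held by all 4 lists. None of these 7 had an unadjusted p under 0.05 for rank (limma). No region was held by both lists of a group and neither list of the other. The cut list of wild-type replicate 2 alone held 2 regions, 56305 to 56851 at percentile 48.7 and 62016 to 62294 at 38.1. Both full *Pt-hh* pRNAi lists held the second of these and neither held the first. The region at 87143 to 87628 stood at percentiles 91.4 and 90.3 in *Pt-hh* pRNAi replicates 1 and 2 and at 94.4 and 93.0 in wild-type replicates 1 and 2. That at 118920 to 119574 stood at 86.8 and 91.0 in *Pt-hh* pRNAi and 94.1 and 90.0 in the wild type. That at 69410 to 70094 stood at 88.5 and 89.6 against 94.6 and 91.3. In 6 of the 7 regions the mean of *Pt-hh* pRNAi was below that of the wild type, with differences between −19.2 and −2.86 points and a limma adjusted p of 0.964 for each. The largest of these differences came from 1 library. At 105565 to 106309 *Pt-hh* pRNAi replicate 1 stood at 44.3 and replicate 2 at 91.4, against 88.1 and 86.1 in the wild type. Beyond the gene, the region at 127189 to 127627 was weak, held by *Pt-hh* pRNAi replicate 2 at 17.0 and by wild-type replicates 1 and 2 at 35.7 and 36.6. The full list of *Pt-hh* pRNAi replicate 1 also held it, at percentile 41.85.

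At the *patched*-like gene (LOC107440240), which encodes the Hedgehog receptor, 5 of 9 regions on NW_018382990.1 were held by all 4 lists. The strongest, 1215781 to 1216948, stood at percentiles 92.7 and 95.9 in *Pt-hh* pRNAi and 96.0 and 91.0 in the wild type. The region at 1231151 to 1231576 stood at 90.3 and 86.3 against 83.4 and 84.8, and that at 1242924 to 1243541 at 75.3 and 78.4 against 85.5 and 83.6. None of the 5 had an unadjusted p under 0.05. A single weak region, 1235218 to 1235547, was *Pt-hh* pRNAi-only, at 31.9 and 33.6 in *Pt-hh* pRNAi replicates 1 and 2, and the full list of wild-type replicate 1 held it.

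At *Pt-GATA5* (LOC107456131), which encodes a GATA transcription factor, 5 regions were found on NW_018368052.1. All 5 had peaks in both cut *Pt-hh* pRNAi lists, and 2 of them in both cut wild-type lists. The full list of wild-type replicate 1 held all 5, and the list of wild-type replicate 2 has no peak beyond the cut. At 1389971 to 1390620 the percentiles were 75.5 and 31.1 in *Pt-hh* pRNAi and 35.2 in wild-type replicate 2. The full list of wild-type replicate 1 held that region at 17.45. The region at 1354065 to 1354490 stood at 75.0 and 66.0 in *Pt-hh* pRNAi, against 10.6 in wild-type replicate 1 and no peak in wild-type replicate 2. That at 1355574 to 1356092 stood at 88.3 and 84.6 against 76.0 and 82.4. That at 1377756 to 1378254 was *Pt-hh* pRNAi-only, at 49.4 and 25.3, and the full list of wild-type replicate 1 held it at percentile 13.9. The region at 1369565 to 1370057 followed the line and not the treatment, at 49.6 and 48.5 in the line 39 libraries of *Pt-hh* pRNAi and wild type and at 9.96 and 5.48 in the line 40 libraries, and no library of *fuchi* pRNAi or of stages 1 and 2 held it. Presence in the 2 groups carries no test here.

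At the *Wnt-16*-like gene (LOC107457243), which encodes a secreted Wnt ligand, 3 of 10 regions on NW_018377318.1 were held by all 4 lists and 6 by 1 list. Its strongest region, 1660583 to 1661435, stood at 97.0 and 98.3 in *Pt-hh* pRNAi and 98.9 and 97.6 in the wild type. The region at 1657831 to 1658355 stood at 49.7 and 52.9 in *Pt-hh* pRNAi, below 67.5 and 64.8 in the wild type, a difference of −14.9 ± 13.9 points (SE) with an adjusted p of 0.964 (limma). At 1565493 to 1566068 the peak stood at 20.6 and 69.1 in *Pt-hh* pRNAi and at 83.2 in wild-type replicate 2. The cut list of wild-type replicate 1 had no peak there, and its full list held it at percentile 29.0.

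At the *ush*-like gene (LOC107440842), whose *Drosophila* namesake encodes a cofactor of GATA factors, 1 of 6 regions on NW_018369952.1 was held by all 4 lists. This region, 430567 to 431576, stood at 97.7 and 97.5 in *Pt-hh* pRNAi and 98.3 and 94.6 in the wild type. The uncharacterised gene *g20850* (LOC107449642) had a single region, NW_018378778.1 at 319412 to 320871, at 85.8 and 96.1 in *Pt-hh* pRNAi and 90.8 and 70.7 in the wild type. Neither *fuchi* pRNAi library held that region. The groups overlapped at both sites.

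**Figure D5:**
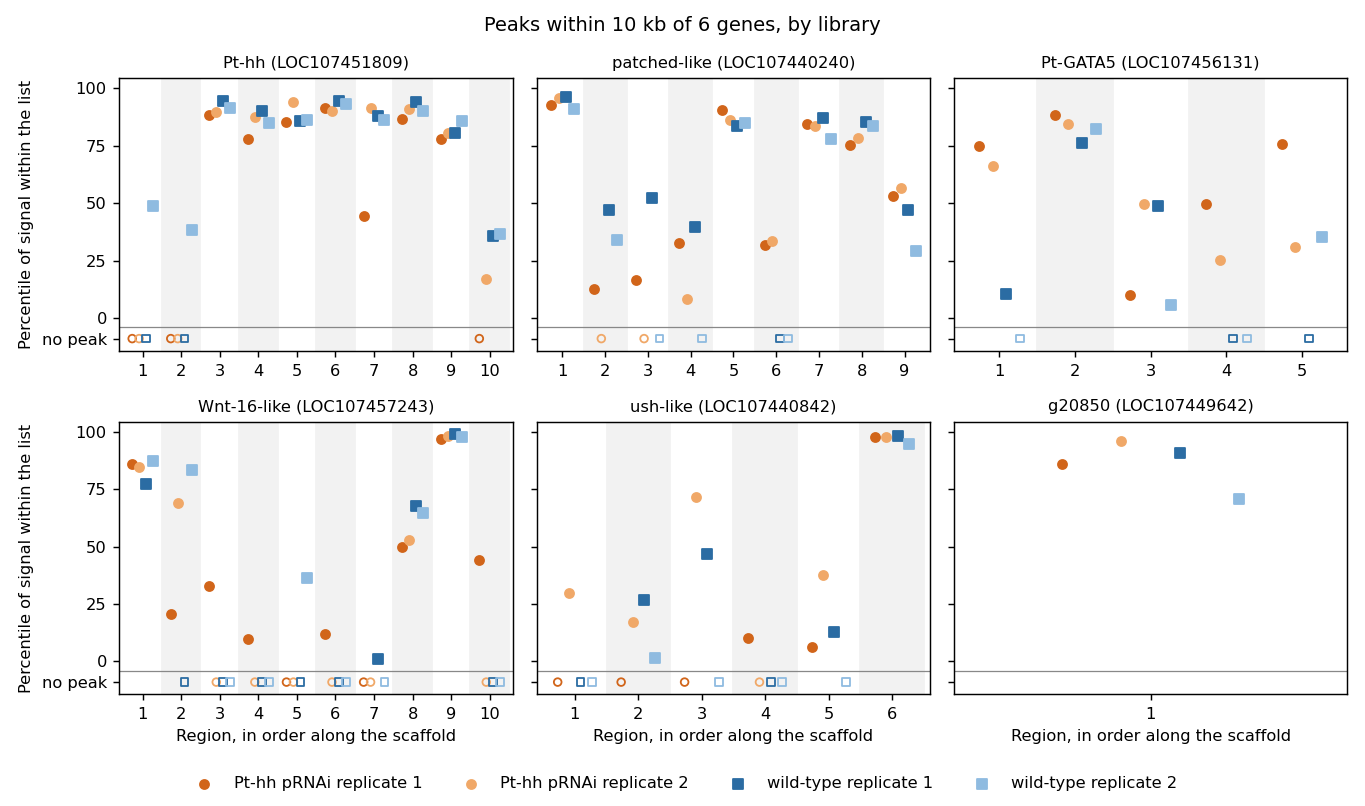
Within-list percentile of the peak in each library (*Pt-hh* pRNAi orange circles, wild type blue squares) for every region inside or within 10 kb of 6 genes, numbered along the scaffold. Open symbols under the line mark lists with no peak. At *Pt-hh* the 7 regions held by all 4 lists lie between 77.7 and 94.6 in all libraries except for *Pt-hh* pRNAi replicate 1 at region 7 (44.3).

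The 17 *Pt-hh* pRNAi-only regions at placed genes fell at 17 genes, 1 region each. Besides *patched*, *Pt-GATA5* and the Runt family gene, these included protein pangolin (LOC107450033), the TCF factor that acts in Wnt signalling, at 65.4 and 13.7 in *Pt-hh* pRNAi replicates 1 and 2, and protein APCDD1-like (LOC107447990), whose vertebrate namesake inhibits Wnt signalling, at 47.7 and 36.7. They also included protein slit (LOC107443293), a secreted ligand of Robo receptors, at 25.8 and 42.9, and weak regions at T-box transcription factor TBX20-like (LOC107436847) at 10.4 and 11.8 and ecdysone-inducible protein E75-like (LOC107457247) at 5.92 and 17.5. At pangolin and slit the full list of wild-type replicate 1 held the region, and at APCDD1-like, TBX20-like and E75-like neither full wild-type list did. At pangolin 22 of 37 regions were held by all 4 lists.

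The 22 wild-type-only regions fell at 17 genes, and 7 of them at 2 genes. Polypyrimidine tract-binding protein 1 (LOC107453795), a splicing regulator, had 4 on NW_018378926.1, among 19 regions of which 5 were held by all 4 lists. A full *Pt-hh* pRNAi list held 3 of the 4. The strongest of these, 1522523 to 1523626, was held in both full *Pt-hh* pRNAi lists at 14.0 and 15.9 and stood at 35.6 and 82.1 in wild-type replicates 1 and 2. At all 4 wild-type replicate 2 was the higher. The adhesion G protein-coupled receptor L1-like gene (LOC107437002) had 3 on NW_018369794.1 among 24 regions, of which 8 were held by all 4 lists, besides the region with narrower peaks in *Pt-hh* pRNAi described above. That at 3892169 to 3893355 was held in both full *Pt-hh* pRNAi lists at 28.8 and 32.6, and stood at 68.7 and 74.4 in the wild type. Homeobox protein Meis2 (LOC107439560), a cofactor of Hox proteins, had 1 such region at 63.3 and 42.6 in the wild type, which both full *Pt-hh* pRNAi lists held at 33.6 and 32.7, among 26 regions of which 12 were held by all 4 lists. The adhesion receptor gene also had 1 *Pt-hh* pRNAi-only region, at 0.912 and 7.84.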

How the data were processed

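The authors trimmed the ATAC-seq reads (Trim Galore), aligned them to the Ptep_2.0 assembly with Bowtie2 2.2.5, removed reads of low mapping quality and duplicates, and called peaks per library with Genrich (version 0.6 per the labels). The deposited lists give for each peak a signal (the area of significance, never under 200), the −log10 p at the summit and the summit's offset. Signal depends on library depth, so lists were compared by rank. Each list was cut to its 12494 peaks of highest signal, peaks overlapping by at least 1 bp were merged across the 4 lists, and the strongest peak of a library stood for the region. Percentile, log2 width and summit position (bp) were compared with limma 3.58.1 in R 4.3.3 (trended empirical Bayes, Benjamini-Hochberg adjustment). Only the percentile fit was also run on simulated data with known changes, whose outcome is not given here. Nothing in the labels says that the replicates came from separate mothers, so the tests measure only the spread between these libraries. Named regions were the 10 strongest of each class with no peak in the opposite full lists, the 5 (rank) and 3 (width) smallest p in each direction, the 5 strongest of all, and every region at the listed genes. Members, lists and tests were chosen with earlier results of these data known. The alternatives were other list lengths, ranking by p-value, stricter overlap, summit windows, other models, and leaving out each library. Gene names come from annotation tables of the study, matched by identifier to RefSeq names (CAS_Ptep_4.0). Sequences, motifs and other genes of the lists were not analysed here, for want of a genome of the build.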

Additional observations from a re-analysis of the deposited data

How the results depend on the processing

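The counts of regions held by 1 group alone moved with how absence was defined. Regions held only by *Pt-hh* pRNAi numbered 713 and those held only by the wild type 450. Uncut lists gave 2024 and 301. With lists of 50% of the length the counts were 360 and 206, and with absence taken from the full lists 273 and 96. The full lists are unequal in length, with 23045 and 19732 peaks in *Pt-hh* pRNAi replicates 1 and 2 and 19812 and 12494 in wild-type replicates 1 and 2. Uncut lists and absence from the full lists therefore do not treat the groups alike, and the list of wild-type replicate 2 has no peak beyond the cut. Within a line, 1 library against 1, they were 3214 and 3194 (line 39) and 4225 and 4038 (line 40). Leaving out 1 library gave 1377 to 2367 and 962 to 3105, the group left with 1 library gaining the larger count by construction. Ranking by p-value, an overlap of 50% and summit windows kept both counts within 1.5 times. Replicate disagreement averaged 30.6%, 36.9% with summit windows, and 26.0% to 35.3% with 1 library left out.

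Rank and width gave 0 calls under every alternative run, the replicate block included. The 26 summit calls became 46 without the trend, 0 with summit windows, 0 with the line block, and 0 to 221 with 1 library left out (221 without wild-type replicate 1 and 0 in the others). With the replicate block there were 0 summit calls. Replicate numbers did not pair the libraries (correlation of deviations −0.082 for rank and −0.016 for log2 width over 6443 regions). Summed signal per region and regions with 1 peak per list were chosen after seeing the data and gave 0 rank calls each, and regions with 1 peak per list gave 23 summit calls. Ranked by p-value, 17 of the 20 strong regions held by 1 group alone moved in mean percentile by more than the replicate SD. The motif readout planned for a genome of the build was not run. Width has no value with summit windows. With 2 libraries a group, rank differences of 63.5 and −80.4 points were also not called.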
